A study of Rattus norvegicus with 56 samples.

Results

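The response of 2 kidney tubule segments to 3 h of ureteral obstruction was compared animal by animal, to find where they changed together and where they changed differently. One is the cortical collecting duct, CCD, and the other the thick ascending limb of the cortex, cTAL. All 24 libraries of the 3 h experiment were used, of 56 samples in the series. Of 32883 genes in the table, the 11002 with at least 1 TPM in 4 or more of the 8 replicates of either segment were tested. They came from male Sprague-Dawley rats, 4 sham and 4 with unilateral ureteral obstruction (UUO). In UUO the left ureter was tied close to the renal pelvis. Sham rats had the same anaesthesia, flank incision and exposure of the ureter without the tie. Each rat number gave 2 CCD libraries and 1 cTAL library of microdissected tubule, and libraries of the same arm and number were taken as 1 animal. The labels do not state which libraries share an animal, so p-values measure the spread between the numbered replicates.

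The CCD ends the cortical nephron. Its principal cells insert the water channel aquaporin-2 (Aqp2) under vasopressin, which acts through the receptor Avpr2, and reabsorb sodium through the epithelial sodium channel, while its intercalated cells move acid and base. The cTAL lies upstream, reabsorbs salt through the cotransporter Slc12a1 without water, and secretes uromodulin (Umod). Obstruction raises the pressure in both, stretches the tubule wall and is known for early loss of concentrating ability, inflammatory signalling and stress gene induction.

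Values are TPM (transcript abundance scaled to a fixed total per library, which keeps no record of depth), analysed as log2(TPM + 1). CCD values are the mean of the 2 libraries on that log scale, written back as TPM. Where 4 values are given they are replicates 1 to 4 in that order. For each animal the cTAL value was subtracted from the CCD value, and the 4 UUO differences were set against the 4 sham differences. The result, called the interaction here, is also the CCD change minus the cTAL change. It is negative where cTAL gained on CCD and positive where CCD gained on cTAL. A gene was called at a Benjamini-Hochberg adjusted p under 0.05 in limma over all genes tested. Log2 changes on this scale understate those of genes near 1 TPM.

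The dissected segments carried their own markers. The 8 summed principal cell markers stood at 15907–18653 TPM in sham CCD and 91.2–618 TPM in sham cTAL, and the 8 thick limb markers at 110.2–4603 TPM and 37355–62859 TPM. Of the 16 CCD libraries 3 held over 5000 TPM of Umod, 2 in sham and 1 in UUO, and the cTAL library of sham 1 held 361 TPM of Aqp2. Each library had between 9585 and 10750 genes with at least 1 TPM. Proximal tubule and blood transcripts were more abundant after obstruction. The 11 summed proximal tubule markers averaged 407 ± 280.0 TPM in sham and 2069 ± 1180.5 TPM in UUO CCD (SD, n = 4), and 859 ± 293 and 2395 ± 836 TPM in cTAL. Of 9 tested, 4 rose in CCD and 5 in cTAL, against 4.72% and 2.96% of all genes tested. The 3 red blood cell markers averaged 614 ± 597 TPM in sham and 5387 ± 2966 TPM in UUO CCD, and 1699 ± 1302 and 5593 ± 4239 TPM in cTAL. All 4 of their loci rose in CCD and none was called in cTAL. The part of these cells in the results below was not tested. In dissected tissue, fewer cells of a type and less RNA per cell cannot be told apart.

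Most genes called in 1 segment at 3 h had the same sign of change in the other. Of 11002 genes tested, limma called 1348 in CCD (12.3%), 519 higher (4.72%) and 829 lower (7.53%) in UUO. The medians over all genes were -0.13 in CCD and -0.11 in cTAL. In cTAL it called 1023 (9.3%), 326 higher (2.96%) and 697 lower (6.34%). The genes called in both in the same direction, 142 higher and 233 lower, numbered 375 (3.41% of those tested), which is 27.82% of the CCD calls and 36.66% of the cTAL calls. Segment libraries of the same number were taken as coming from 1 animal, in which case these lists are not independent. Over all genes tested, 68.2% had the same sign of change in both segments, and 64.2% of the 9004 genes with no call of any kind did. Of 955 genes called in CCD but not in cTAL or the interaction, 85.45% had the same sign in cTAL. Of 598 genes called in cTAL alone in this way, 86.29% had the same sign in CCD. Both sets were chosen for having no called interaction, which favours equal signs, so these shares are a description.

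The interaction itself was called for 71 genes (0.645%), 35 positive (0.318%) and 36 negative (0.327%), while 1636 had an unadjusted p under 0.05. The median interaction of all genes was 0.01, so the scaled values of one segment did not shift as a whole against the other. A change in the total transcript amount of a segment cannot be seen in TPM. Differences of the 4 UUO and 4 sham animals did not overlap in 1037 genes (9.43%), and in all 71 called genes they did not overlap. Within a segment the arms did not overlap in 20.3% of genes in CCD and 18.6% in cTAL. By segment, 44 of the 71 were called in cTAL and not in CCD (0.4% of genes tested, 21 higher and 23 lower), 12 in CCD and not in cTAL (0.109%, 9 higher and 3 lower), 4 in both in opposite directions, 3 in both in the same direction and 8 in neither. The change was larger in cTAL for 57 of the 71, against 59.5% of all genes tested. A cTAL value is 1 library and a CCD value a mean of 2, and the part of this in the count was not tested. Of the 36 negative interactions, 34 had the higher sham level in CCD and 8 the higher UUO level there. Of the 35 positive ones, 2 had the higher sham level in CCD and 23 the higher UUO level. The order of the segments turned between sham and UUO in 48 of the 71. The sham values enter both sides of these counts, which are a description. Among the 71 are 8 loci with clone or locus names, of which AABR07012583.1 and AABR07012582.2 had the same values in every animal and were counted under both names.

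**Figure D1:**
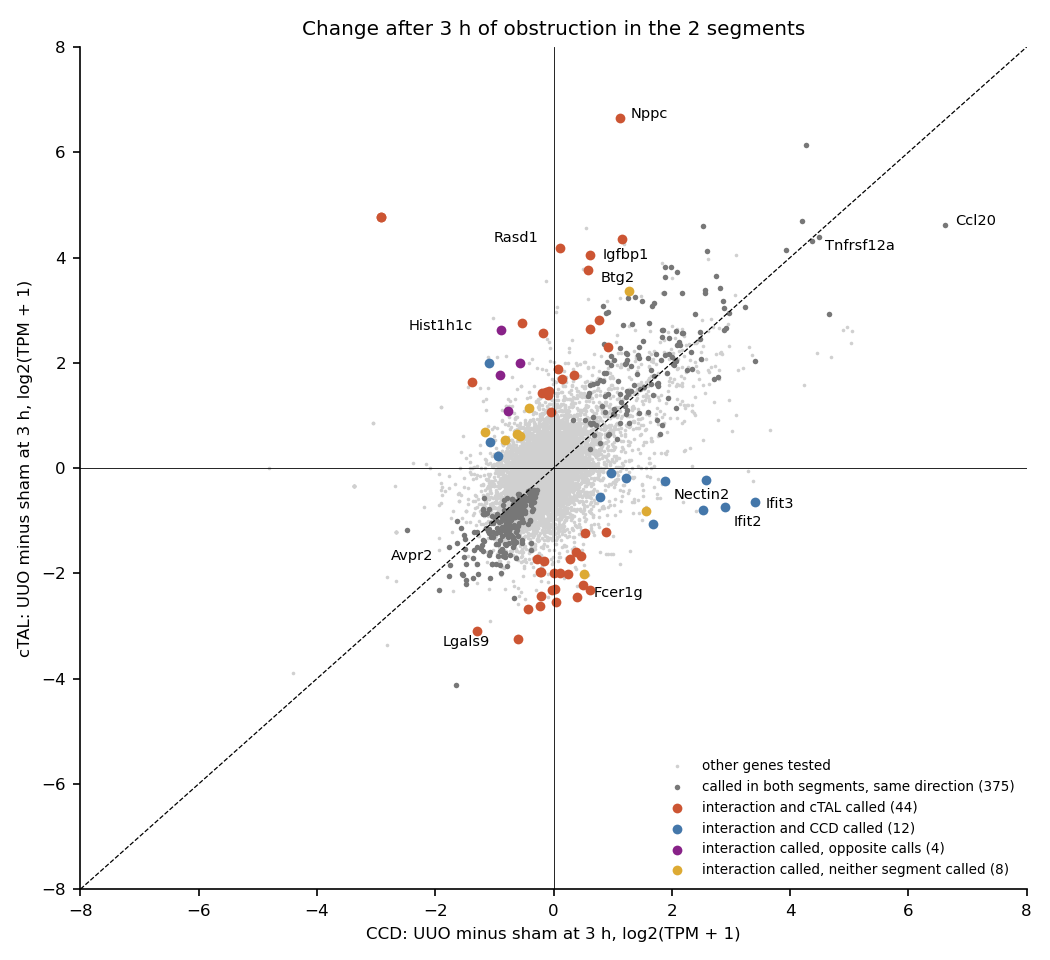
Change after 3 h of obstruction in CCD (horizontal axis) and cTAL (vertical axis), each UUO minus sham on log2(TPM + 1), for the 11002 genes tested; the dashed line marks equal change. Among the coloured genes, the 375 called in both segments in the same direction lie in the lower left and upper right, and the 44 called in the interaction and in cTAL alone lie away from the dashed line, mainly above and below the centre.

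The smallest interaction p was that of Hist1h1c, which encodes the linker histone H1.2. It stood at 892, 1036, 733 and 537 TPM in the 4 sham CCD replicates and 316, 529.5, 459.8 and 396 TPM in the UUO ones. In cTAL it stood at 163, 121, 101 and 70.9 TPM in sham and 453, 685, 1037 and 661 TPM in UUO. Every UUO replicate lay below every sham one in CCD and above every sham one in cTAL. CCD minus cTAL was 2.44, 3.08, 2.85 and 2.90 in sham and -0.52, -0.37, -1.17 and -0.74 in UUO, so the segment with more of it turned from CCD to cTAL (limma interaction -3.52, SE 0.25, adjusted p = 0.00223). The changes themselves were -0.89, SE 0.21, adjusted p = 0.0292 in CCD and 2.63, SE 0.30, adjusted p = 0.00326 in cTAL. It was the only one of the 71 interactions still called in all 8 fits that left out 1 animal, with adjusted p from 0.00716 to 0.02. Its CCD fall was not called in 4 of the 8.

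In 3 other genes with a called interaction both segments passed the test in opposite directions, again lower in CCD and higher in cTAL. Of the 8 fits without 1 animal, Afap1l2 lost its CCD call in 6 and its cTAL call in 7, Gstm2 lost its cTAL call in 5 and Patz1 in 4. The interactions of Gstm2 and Patz1 were lost in 7 of the 8 and that of Afap1l2 in 6. Another 2 genes, named after their values were seen, had opposite calls and an interaction that missed the threshold. Ctnnal1, a relative of alpha-catenin, fell in CCD from 96.6–129 TPM in sham to 60.4–91.6 in UUO and rose in cTAL from 6.67–9.83 to 12.3–29.4 TPM (interaction -1.95, SE 0.39, adjusted p = 0.0653). Fxyd5, a regulator of the sodium pump, rose in CCD from 2.26–4.37 TPM in sham to 5.03–8.47 in UUO and fell in cTAL from 21.2–56.4 to 5.56–13.2 TPM (interaction 2.56, SE 0.46, adjusted p = 0.0506). Afap1l2, an adaptor protein that binds actin filaments, had 14, 17.5, 13.1 and 11.6 TPM in sham CCD, 5.49, 8.84, 9.27 and 4.96 in UUO CCD, 3.32, 4.44, 4.24 and 1.13 in sham cTAL and 14, 18.6, 13.8 and 7.01 in UUO cTAL (interaction -2.68, SE 0.30, adjusted p = 0.0303). Patz1, a zinc finger transcription regulator, was at 26.6–28.9 TPM in sham and 13.6–19.3 in UUO CCD, and at 20–29.1 in sham and 34–67.9 in UUO cTAL, with no overlap of arms in either (interaction -1.86, SE 0.29, adjusted p = 0.0367). Gstm2 is a glutathione transferase, an enzyme that couples glutathione to reactive compounds. It was at 1531, 1537, 1429 and 1555 TPM in sham CCD and 1030.0, 936, 1074 and 1065 in UUO CCD, a small fall, against 859, 1449, 1060.0 and 1283 TPM in sham and 9310.0, 3572, 5918 and 2129 in UUO in cTAL (interaction -2.55, SE 0.43, adjusted p = 0.0486). Its relative Gstm1 rose in cTAL from 142, 261, 221 and 217 TPM in sham to 3007, 1153, 2238 and 498 in UUO, while in CCD it went from 191–314 TPM in sham to 136–186 in UUO and missed the threshold (log2 change -0.53, SE 0.16, adjusted p = 0.0581). The interaction of Gstm1 was -3.29, SE 0.58, adjusted p = 0.0496. In both transferases UUO 4 had the lowest cTAL value of its arm and UUO 1 the highest. The 2 genes are close relatives, and reads may have been split between them in counting.

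**Figure D2:**
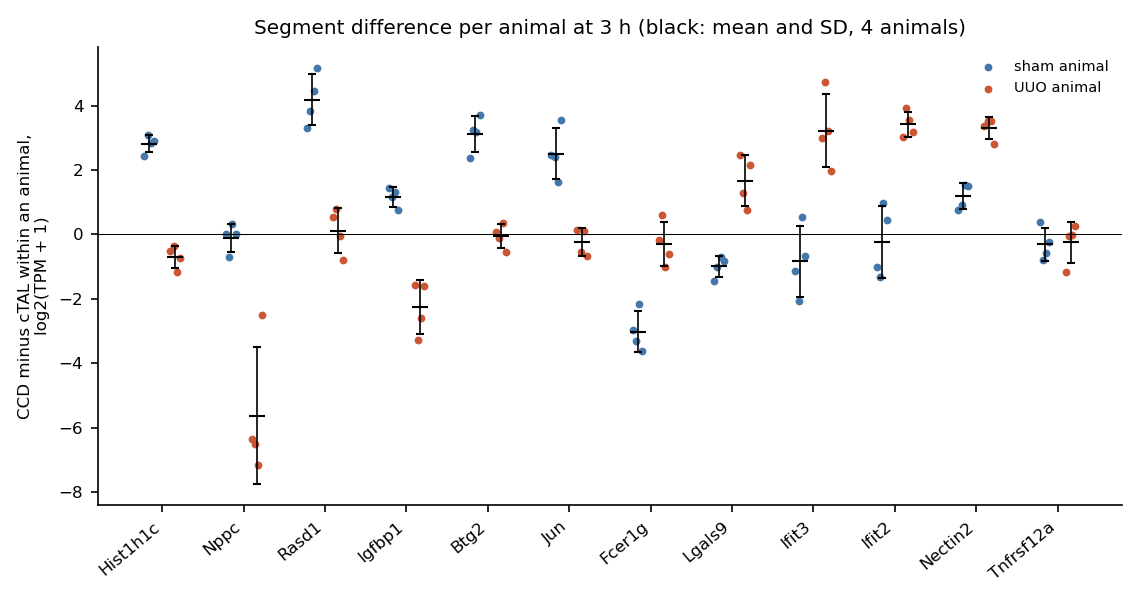
CCD minus cTAL within each animal, in log2(TPM + 1), for 12 genes; points are 4 sham (blue) and 4 UUO (red) animals, black marks the mean and SD. For 11 genes the arms are apart, with Hist1h1c between 2.44 and 3.08 in sham and between -1.17 and -0.37 in UUO, while Tnfrsf12a, a rise shared by both segments, overlaps.

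Among genes that rose in cTAL and had no call in CCD, the largest was Nppc, the precursor of C-type natriuretic peptide, a local relaxant and growth regulator. It was listed at 0, 0.63, 0 and 0 TPM in sham cTAL and 186, 89.6, 235 and 39.9 TPM in UUO cTAL, and at 1.3, 0, 0.658 and 6.29 TPM in UUO CCD. All 4 obstructed limbs thus held far more than any other replicate (interaction -5.53, SE 0.94, adjusted p = 0.0486). Rasd1, a glucocorticoid-inducible Ras-like GTPase, was high in CCD in both arms, 73.5–107 TPM in sham and 78.1–129 in UUO. In cTAL it went from 9.92, 6.58, 2.42 and 1.52 TPM in sham to 57.6, 44.9, 124 and 226 in UUO, so that the segments were close in UUO and far apart in sham (interaction -4.07, SE 0.48, adjusted p = 0.0303). Igfbp1, which binds insulin-like growth factors, was at 33.5, 28.8, 28.1 and 28.4 TPM in sham cTAL and 254, 823, 483 and 635 in UUO cTAL. In CCD, UUO 4 alone stood out, with 85.8, 83.9, 79.3 and 210.0 TPM against 48.2–92.3 in sham (interaction -3.42, SE 0.40, adjusted p = 0.0303). Every UUO animal had more Igfbp1 in cTAL than in CCD and every sham animal less.

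Other genes rose in cTAL with no CCD call and a called interaction. Sgk1, the kinase through which aldosterone and glucocorticoids raise sodium channel activity, was at 945, 627, 486 and 200.1 TPM in sham CCD and 898, 894, 692 and 568 in UUO CCD, overlapping arms. In cTAL it was at 91.1, 108, 39.5 and 35.7 TPM in sham and 433, 396, 334 and 394 in UUO, without overlap (interaction -2.03, SE 0.33, adjusted p = 0.0443). Spp2, a secreted phosphoprotein of the cystatin superfamily, reached 118, 46, 12.2 and 37.7 TPM in UUO cTAL from 1.55, 0, 0 and 5.46 in sham (interaction -3.20, SE 0.47, adjusted p = 0.0341). Pim3, a survival kinase, was at 3.36–14.2 TPM in sham and 30.6–71.5 in UUO cTAL, and Lmo4, a LIM-domain cofactor, at 3.95–8.54 TPM in sham and 12.5–31.6 in UUO. Their interactions were -2.06 and -3.02 (both adjusted p = 0.0341). The CCD value of Lmo4 was in the other direction, -1.38, SE 0.46, adjusted p = 0.0792, and not called. Il19, a cytokine of the IL-10 family, was listed at 0 in all sham replicates of both segments. It had 1.33, 1.36, 2.03 and 6.88 TPM in UUO cTAL and 0, 0, 0 and 1.55 in UUO CCD (interaction -1.42, SE 0.19, adjusted p = 0.034).

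Immediate early genes, whose transcription needs no new protein, made up part of this group. Of 7 AP-1 factors tested, 4 rose in cTAL and 3 in CCD, and none fell. Their interaction values were negative for 4 and positive for 3, and the AP-1 members described below all have negative values. For comparison, 2.96% of all genes rose in cTAL, 4.72% rose in CCD and 49.4% had a negative interaction value. Of 16 other immediate early genes, 9 rose in cTAL and 7 in CCD, and 13 of the 16 interaction values were negative, with a median of -0.65 against 0.01 for all genes. Of both lists, only Jun and Btg2 were called in the interaction. Jun, a subunit of the AP-1 factor, was at 2.12, 2.5, 1.96 and 0.39 TPM in sham cTAL, 7.21, 16.1, 16.2 and 22 in UUO cTAL, 16.4, 17.5, 8.12 and 15.2 in sham CCD and 8.1, 10.8, 17.7 and 13.5 in UUO CCD (interaction -2.75, SE 0.41, adjusted p = 0.0341). Btg2, an antiproliferative factor, went in cTAL from 19.2, 12.8, 11.8 and 12 TPM in sham to 98.2, 196, 210.0 and 380.1 in UUO, and was at 103, 131, 114 and 170.1 TPM in sham and 103, 181, 266 and 261 in UUO CCD (interaction -3.19, SE 0.33, adjusted p = 0.0275). Both genes were high in sham CCD already, and obstructed cTAL came up to that level.

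Fos showed the same order on a larger scale without passing the interaction test. In sham CCD it stood at 168, 310.5, 166 and 714 TPM and in UUO CCD at 262, 518, 554 and 375, against 2.1, 26.1, 2.3 and 3.66 TPM in sham and 182, 76.8, 81.7 and 332 in UUO cTAL. Its cTAL rise was called (4.55, SE 0.75, adjusted p = 0.0111) and its interaction, although the animals' differences did not overlap, was not (-4.01, SE 0.88, adjusted p = 0.079). Junb had an interaction of -3.69, SE 0.70, adjusted p = 0.0554. Atf3, a stress-induced member of the same family, rose in both segments, by 2.52 in CCD (a call lost in 6 of those 8 fits) and 4.61 in cTAL (interaction -2.08, SE 0.61, adjusted p = 0.163). Myc did so by nearly equal amounts, 2.87 and 3.17 (95% interval of the interaction -0.83 to 0.25).

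Rcan1, a feedback inhibitor of calcineurin, rose in both segments and more in cTAL. It had 30.1, 26.4, 29.1 and 38.8 TPM in sham CCD, 56, 63.2, 90.9 and 99.7 in UUO CCD, 4.44, 6.72, 4.91 and 5.34 in sham cTAL and 27, 66.8, 75.3 and 83.5 in UUO cTAL (interaction -1.97, SE 0.30, adjusted p = 0.0367). Chac1, an enzyme that degrades glutathione and a target of ATF4, did likewise, from 0.213, 0.945, 0.217 and 0.208 TPM in sham to 2.78, 4.34, 1.93 and 1.31 in UUO in CCD and from 0, 0.07, 0.27 and 0 TPM in sham to 8.65, 11.3, 5 and 2.83 in UUO in cTAL (interaction -1.42, SE 0.25, adjusted p = 0.0496). With LOC100910528, a shared fall that was larger in cTAL (-0.38 and -1.56), these were the 3 shared genes with a called interaction. Rcan1 and LOC100910528 were named after their values had been seen.

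The upstream sequences of the called genes were searched for 3 motifs on both strands, the cyclic AMP response element TGACGTCA, the AP-1 site TGANTCA and the interferon-stimulated response element (GAAA, 2 bases of any kind, GAAA), in the 250 bases before the start of the gene in RefSeq (build GRCr8). Genes matched to exactly 1 RefSeq entry were kept, 41 of the 71. The shares of all promoters count every entry, also those of genes not tested here, so the 2 sets are unlike. The cyclic AMP element was present in 1.59% of all 33469 promoters and in 4 of the 41 (9.76%), those of Btg2, Rcan1, Arl4d and Ch25h. The interferon element was present in 3.41% of all and 6 of the 41 (14.6%), and the AP-1 site in 6.34% and 4 (9.76%). The interferon element was that of Ifit3, a rise in CCD, Il19, a rise in cTAL, and Klrk1, Casp1, Lgals9 and RT1-S3, falls in cTAL. Among matched rises called in the interaction and in CCD alone, each motif was in 1 of 4. Among those called in cTAL alone, the interferon and cyclic AMP elements were each in 1 of 14 and the AP-1 site in 0. No test was made, and a match is a description of the letters, not of binding. The 3 sequences below are shown because Btg2 and Rcan1 are rises larger in cTAL that share the cyclic AMP element, while Ch25h holds it too and rose in CCD. Capitals mark the motif letters.
Btg2 (chr13:48087691-48087940, minus strand): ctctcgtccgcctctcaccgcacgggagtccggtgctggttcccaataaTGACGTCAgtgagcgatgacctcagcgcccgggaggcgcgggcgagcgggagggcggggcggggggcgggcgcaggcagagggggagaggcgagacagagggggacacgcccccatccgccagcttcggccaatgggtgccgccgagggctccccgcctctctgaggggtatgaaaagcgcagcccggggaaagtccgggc
Rcan1 (chr11:45118237-45118486, minus strand): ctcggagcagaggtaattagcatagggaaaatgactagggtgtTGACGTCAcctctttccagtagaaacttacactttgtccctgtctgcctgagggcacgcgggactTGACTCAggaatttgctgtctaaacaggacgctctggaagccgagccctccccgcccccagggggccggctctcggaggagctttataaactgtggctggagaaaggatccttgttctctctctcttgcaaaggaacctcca
Ch25h (chr1:241429367-241429616, minus strand): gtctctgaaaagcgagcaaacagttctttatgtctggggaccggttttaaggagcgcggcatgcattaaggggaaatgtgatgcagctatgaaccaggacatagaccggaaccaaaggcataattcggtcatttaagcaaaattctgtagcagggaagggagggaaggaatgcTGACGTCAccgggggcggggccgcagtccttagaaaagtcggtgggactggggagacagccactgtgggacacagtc

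The element begins 201 bases before the start in Btg2, 207 in Rcan1 and 77 in Ch25h. Rcan1 also holds an AP-1 match 142 bases before its start.

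The stress-response lists are read against all genes tested, of which 2.96% rose in cTAL, 4.72% rose in CCD and 49.4% had a negative interaction value. Of 25 genes of the integrated stress and unfolded protein response, 8 rose in cTAL and none fell there, while in CCD 2 rose and 2 fell, and 22 of the 25 interaction values were negative (median -0.78). Trib3, a pseudokinase induced by ATF4 and named, like Atf4, after its values were seen, was at 2.85, 3.9, 3.35 and 7.14 TPM in sham and 24.6, 24.1, 19.4 and 11.2 in UUO cTAL, against 7.8–10.7 TPM in sham and 10.7–16.2 in UUO in CCD (interaction -1.52, SE 0.31, adjusted p = 0.0673). Atf4 itself rose in both, by 0.62 and 1.58. Only Chac1 of this list was called in the interaction. Of 18 heat shock genes, 3 rose in cTAL, 2 rose and 2 fell in CCD, and 14 had negative values. Dnajb4, a co-chaperone, was at 11.2, 7.54, 7.67 and 4.94 TPM in sham and 23.1, 32.5, 30.7 and 18 in UUO cTAL and between 16.5 and 22.3 TPM in all CCD replicates (interaction -1.59, SE 0.33, adjusted p = 0.0718). Of 7 metallothioneins and zinc transporters, the same 3 rose in both segments and 6 had a negative interaction value. Mt1, a zinc-binding metallothionein, went from 559 ± 78.2 TPM in sham to 2189 ± 881 in UUO (SD, n = 4) in CCD and from 634 ± 199 to 7587 ± 805 TPM in cTAL. All UUO differences (CCD minus cTAL) of Mt1 lay below all sham ones, yet the interaction missed the threshold (-1.75, SE 0.36, adjusted p = 0.0719), as did that of Mt2A (-1.84, SE 0.35, adjusted p = 0.0545). The 2 genes are relatives, and whether their counts share reads was not tested.

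**Figure D3:**
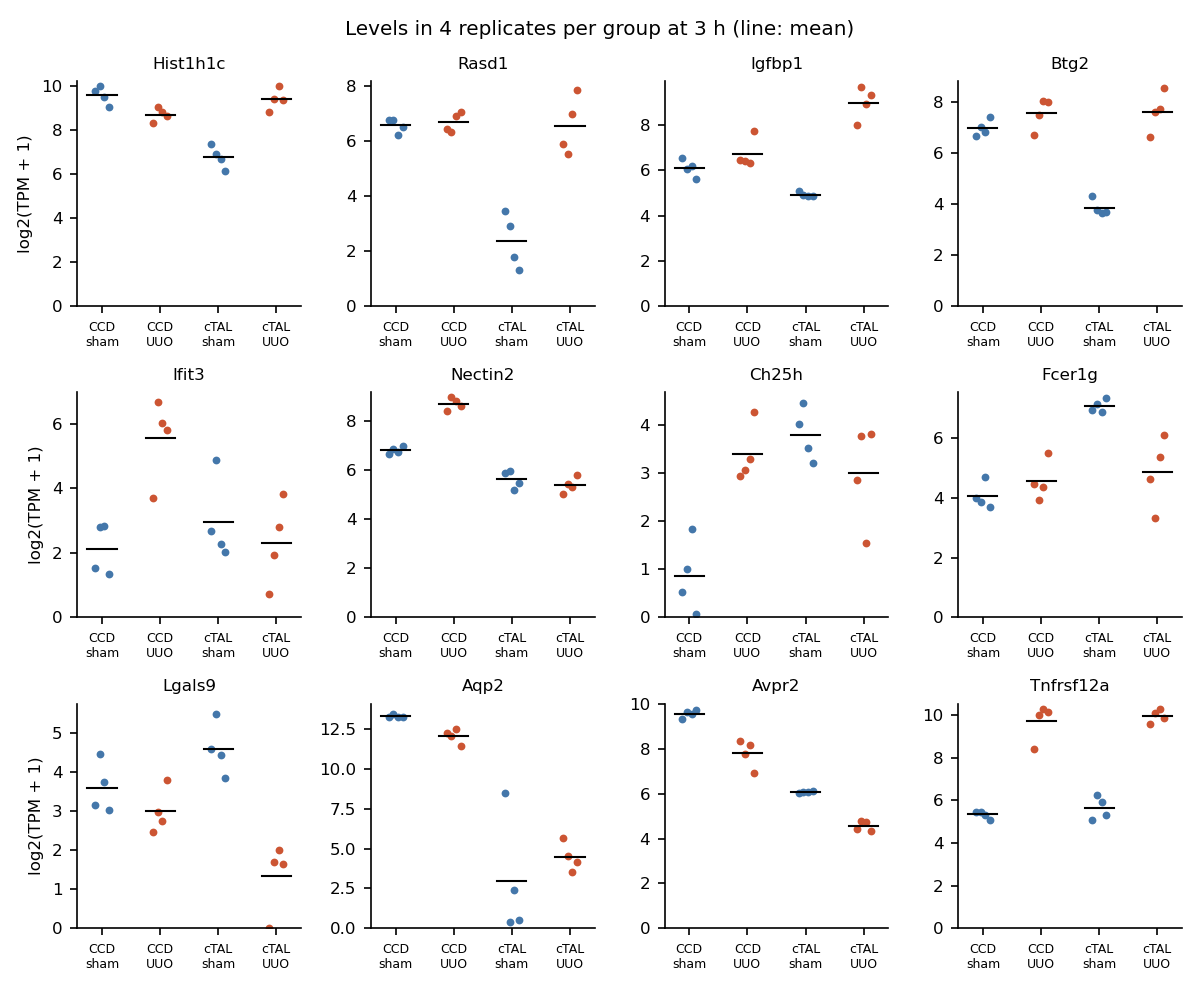
Levels of 12 genes in log2(TPM + 1) in the 4 replicates of each group, with the mean as a line; CCD points are the mean of 2 libraries. Rasd1 and Btg2 in obstructed cTAL reach the CCD level, Ifit3 and Nectin2 are higher in obstructed CCD, and Fcer1g and Lgals9 are lower in obstructed cTAL.

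Of the 23 falls called in cTAL and in the interaction, 7 are in a list of myeloid transcripts that was compiled after the values had been seen. Fcer1g, the signalling chain of Fc receptors on myeloid cells, stood at 122, 141, 115 and 159 TPM in sham cTAL and 23.7, 9.03, 40 and 67.1 in UUO cTAL. In CCD it was at 14.8, 13.4, 24.7 and 11.9 TPM in sham and 21.1, 14.2, 19.4 and 43.9 in UUO with overlapping arms (interaction 2.72, SE 0.43, adjusted p = 0.0377). Clec4a3, a C-type lectin of myeloid cells, went from 12.6, 25.8, 13.5 and 23.9 TPM in sham to 2.34, 1.28, 1.19 and 5.9 in UUO in cTAL (interaction 2.59, SE 0.36, adjusted p = 0.0341). Plek, a protein kinase C substrate of blood cells, went from 6.64, 9.02, 9.34 and 15.4 TPM in sham to 0, 0.52, 0 and 4.89 in UUO (interaction 2.40, SE 0.36, adjusted p = 0.0341), and in each of these 3 genes UUO 4 kept the highest cTAL value of its arm. Rgs18, a regulator of G protein signalling in blood cells, was at 5.89–9.85 TPM in sham and 0–0.75 in UUO cTAL (interaction 2.25, SE 0.31, adjusted p = 0.0341). Aif1, a calcium-binding protein of macrophages, had an interaction of 2.53, SE 0.44, adjusted p = 0.0496 with neither segment called.

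The 9 summed macrophage markers held 701–1336 TPM in sham cTAL and 119–429 TPM in UUO cTAL, against 83–215 and 156–253 TPM in CCD. Thus the arms did not overlap in cTAL, and sham cTAL held several times the CCD level. Of the 7 macrophage markers tested, 2 fell in cTAL, 3 rose in CCD, and all 7 interaction values were positive, none of them called. Among all genes tested, 6.34% fell in cTAL, 4.72% rose in CCD and 50.6% had a positive interaction value. Lyz2, lysozyme, went from 689, 1020.0, 549 and 890.4 TPM in sham to 257, 67.2, 269 and 252 in UUO in cTAL. It made up most of the macrophage sum in every cTAL replicate, and without it the arms of that sum overlap. C1qb, a complement subunit made by macrophages, went from 6.66, 6.82, 14.2 and 7.41 TPM in sham to 38.8, 22.1, 45.7 and 24.8 in UUO in CCD. The longer myeloid list is the one compiled after the values had been seen, so its counts are a description. It had 24 transcripts tested, with 12 falls in cTAL, 1 rise in CCD, 24 positive interaction values and 8 called ones. Its 31 members in the table summed to 2354–3347 TPM in sham and 1178–2372 TPM in UUO cTAL, where the arms overlapped, and to 194–670.1 and 255–1146 TPM in CCD. The 7 endothelial markers also summed lower in UUO cTAL, 48.1–82.1 TPM against 54.3–333, with overlapping arms, and 2 of 5 tested fell there. Of 4 neutrophil and 5 lymphocyte markers none passed the expression filter. The part of leukocyte number in these falls was not tested.

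**Figure D4:**
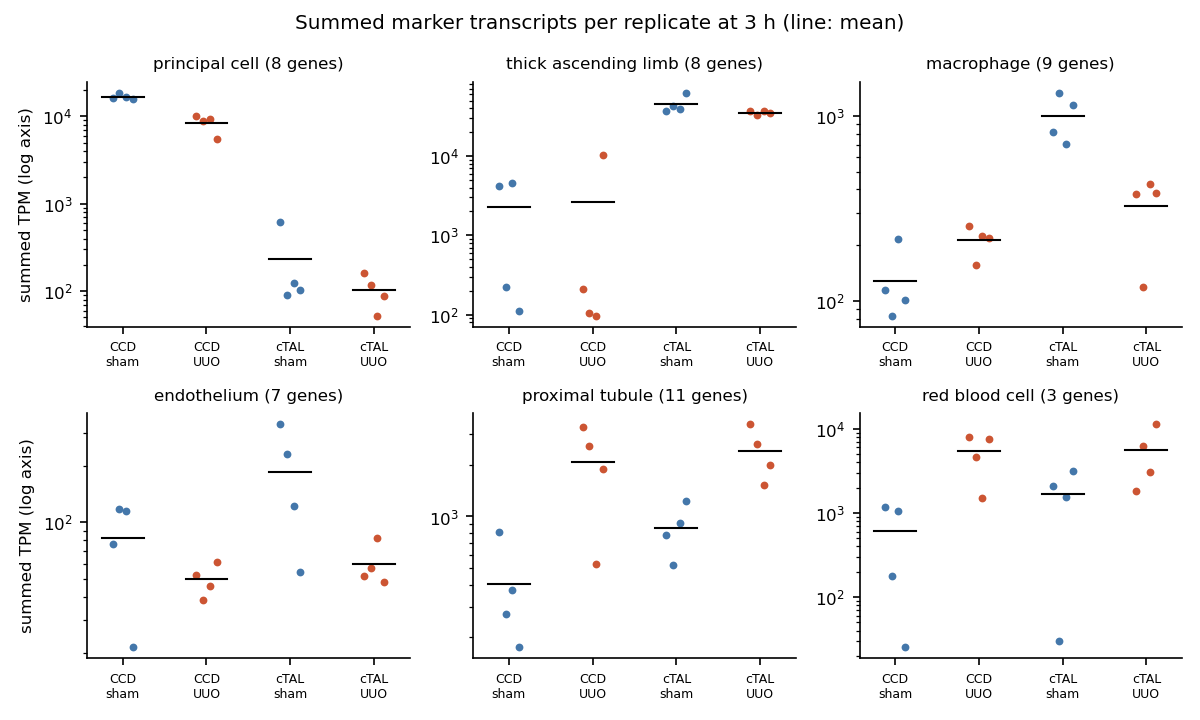
Summed TPM of marker transcripts of 6 cell types (log axis) in the 4 replicates of each group, with the mean as a line. The macrophage sum, most of it Lyz2 in cTAL, is lower in obstructed cTAL and not in obstructed CCD. Proximal tubule and red blood cell transcripts are higher on average in UUO in both segments.

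Among the called cTAL falls outside that list, Lgals9, which encodes galectin-9 and is also made by myeloid cells, was at 22.9, 43.7, 20.7 and 13.4 TPM in sham cTAL and 0, 2.23, 2.99 and 2.13 in UUO cTAL, while CCD held 7.18–21.2 TPM in sham and 4.58–13 in UUO (interaction 2.65, SE 0.39, adjusted p = 0.0341). RT1-S3, a non-classical class I histocompatibility gene of a family whose reads are hard to tell apart, was at 48.5, 50.3, 19 and 30.5 TPM in sham and 3.82, 4.2, 7.68 and 11.1 in UUO in cTAL (interaction 2.92, SE 0.36, adjusted p = 0.0303). Fam167b fell in cTAL from 16.3–36.5 TPM in sham to 0.81–6.16 in UUO and its change in CCD was -1.29, SE 0.38, adjusted p = 0.0528. Csgalnact1, which starts chondroitin sulfate chains, went from 4.88–11.8 TPM in sham to 0–1.18 in UUO, and Gngt2, a G protein gamma subunit also found in myeloid cells, from 14.9–27.2 TPM in sham to 1.29–11.1 in UUO. The interactions of these 3 genes were 1.80, 2.22 and 2.30.

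Of the 9 rises called in CCD and in the interaction but not in cTAL, 4 are in a list of interferon-stimulated genes that was compiled after the values had been seen. Ifit3, which binds foreign RNA complexes as part of the antiviral response, was at 1.9, 6, 6.04 and 1.53 TPM in sham CCD and 12, 100.3, 63.4 and 54.1 in UUO CCD. In cTAL it was at 5.39, 28.4, 3.79 and 3.06 TPM in sham and 0.64, 2.81, 5.96 and 13.1 in UUO, with sham 2 the highest (interaction 4.06, SE 0.67, adjusted p = 0.0477). Ifit2, of the same family, was at 1.06, 2.6, 2.58 and 1.11 TPM in sham and 7.21, 24.2, 28.5 and 27.5 in UUO in CCD and 3.12, 8.05, 0.8 and 0.56 TPM in sham and 0, 0.67, 1.52 and 2.15 in UUO in cTAL (interaction 3.64, SE 0.52, adjusted p = 0.0341). Both genes were lowest in UUO 1 among the obstructed CCD replicates, though still above every sham. Ch25h, the cholesterol 25-hydroxylase, was at 0.446, 0.995, 2.55 and 0.0536 TPM in sham and 6.69, 7.3, 8.7 and 18.1 in UUO in CCD and 15.2, 20.8, 10.4 and 8.15 TPM in sham and 6.2, 12.6, 1.9 and 13 in UUO in cTAL (interaction 3.33, SE 0.57, adjusted p = 0.0496). Ifitm1, a membrane protein that restricts viral entry, was at 2.16–5.1 TPM in sham and 6.25–22.3 in UUO CCD (interaction 2.75, SE 0.46, adjusted p = 0.0486).

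Of 29 tested genes of this list, 8 rose and 2 fell in CCD, none rose and 2 fell in cTAL, and 27 interaction values were positive, 4 of them called. The list was compiled after the values had been seen, so these counts are a description. The shares of all genes were 4.72% and 7.53% in CCD, 2.96% and 6.34% in cTAL, and 50.6% with a positive value. The median change of the list was 0.02 in CCD and -0.82 in cTAL, against -0.13 and -0.11 over all genes. The summed level of the 33 list members in the table in CCD was 1621–1802 TPM in sham and 1372–1776 in UUO, with overlapping arms. In cTAL it was 2484–2938 TPM in sham and 1624–2164 in UUO, lower in every UUO replicate than in any sham one. Oasl, an antiviral protein related to oligoadenylate synthetases, rose in CCD (2.41, SE 0.34, adjusted p = 0.00691) with an interaction of 3.23, SE 0.71, adjusted p = 0.0788. The Ifit3 upstream sequence is shown because it is the matched promoter among these 4 genes that holds the interferon element, which begins 44 bases before the start and is read here on the other strand. An AP-1 match follows 8 bases before the start.
Ifit3 (chr1:241527076-241527325, plus strand): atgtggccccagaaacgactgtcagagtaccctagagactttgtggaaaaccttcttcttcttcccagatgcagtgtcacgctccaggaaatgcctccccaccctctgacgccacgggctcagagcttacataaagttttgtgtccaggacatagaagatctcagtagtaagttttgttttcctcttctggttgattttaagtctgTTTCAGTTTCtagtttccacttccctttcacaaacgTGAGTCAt

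The other CCD rises had other roles. Nectin2, a cell adhesion protein of junctions, was at 99.5, 116, 106 and 127 TPM in sham CCD and 338, 499, 456 and 389 in UUO CCD, against 58.7, 60.8, 36 and 44 TPM in sham and 31.7, 42.2, 38.5 and 55.4 in UUO in cTAL (interaction 2.13, SE 0.30, adjusted p = 0.0341). Every CCD replicate of this gene lay above every cTAL one, and the arms were apart in CCD and overlapped in cTAL. Its interaction call was lost in 7 of the 8 fits without 1 animal. Cfap20, a ciliary protein, went from 126–163 TPM in sham to 265–396 in UUO (interaction 1.42, SE 0.22, adjusted p = 0.0377), and Fdft1, squalene synthase of the cholesterol pathway, from 47.5–58.3 TPM in sham to 78.5–112 in UUO (interaction 1.33, SE 0.23, adjusted p = 0.0496). Rhobtb1, an atypical GTPase too low to fall under the naming rule and named after its values were seen, was another of the 9 rises.

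Of the 3 falls in CCD, Adm2, the vasoactive peptide adrenomedullin 2, was at 15.1, 13.7, 12.5 and 16.4 TPM in sham and 9.71, 3.15, 4.83 and 9.34 in UUO CCD. In cTAL it went the other way, 0, 0.63, 0.95 and 1.23 TPM in sham and 15, 5.01, 1.41 and 6.59 in UUO, and just missed the threshold there (adjusted p = 0.0542; interaction -3.08, SE 0.46, adjusted p = 0.0341). Itpk1, an inositol phosphate kinase, went from 7.87–17.4 TPM in sham to 4.17–7.07 in UUO and Gpr160, an orphan receptor, from 271–453 TPM in sham to 136–216 in UUO, with interactions of -1.59 and -1.16. Among the 8 genes called in the interaction with neither segment called, Cebpd, a factor of the acute phase response, had 4.15, 5.74, 0.55 and 0.13 TPM in sham and 4, 37.6, 72.2 and 48.4 in UUO cTAL, and 7.87, 9.55, 2.52 and 2.81 TPM in sham and 3.77, 13.7, 26.4 and 21.4 in UUO in CCD. UUO 1 stayed at the sham level in both segments (interaction -2.10, SE 0.37, adjusted p = 0.0496). Cd40, a receptor of the TNF family on immune and epithelial cells, had an interaction of 2.38, SE 0.42, adjusted p = 0.0496 from low levels of 2.12–14.3 TPM in UUO CCD and 0–1.58 TPM in UUO cTAL.

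Among shared rises, Tnfrsf12a, the receptor of the cytokine TWEAK, was at 43.4, 42.8, 39.4 and 33.2 TPM in sham CCD, 339.7, 1040.0, 1242 and 1123 in UUO CCD, 32.9, 75.6, 59.6 and 38.9 in sham cTAL and 769, 1079, 1245 and 932 in UUO cTAL. The changes were 4.37, SE 0.36, adjusted p = 0.00147 in CCD and 4.31, SE 0.27, adjusted p = 0.000291 in cTAL, and the 95% interval of their difference ran from -0.77 to 0.91. Akap12, a scaffold of protein kinase A, rose by 2.96 and 2.95 (interval -0.48 to 0.52). Nfkbia, the inhibitor that NF-kB induces against itself, rose by 1.23 and 1.34 (interval -0.67 to 0.44). For these 3 the interval stays within 1 log2 unit, as it does for 198 of the 375 shared genes. For the rest the interval reaches 1 log2 unit or beyond, so a difference of that size remains possible. The 3 shared genes with a called interaction are among them.

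Genes of cytokine signalling spread more between animals. Socs3, the feedback inhibitor of STAT3 signalling, was at 26.1, 71.5, 87.8 and 99.8 TPM in UUO CCD and 2.71, 70.1, 78.2 and 108 TPM in UUO cTAL, where UUO 1 stayed near the sham range of 0–2.45. Its mean changes were 4.48 and 4.40, with an interval from -1.87 to 2.04, and its cTAL call was lost in 7 of the 8 fits without 1 animal. Ccl20, a chemokine for lymphocytes and dendritic cells, reached 63.1, 223, 691 and 862 TPM in CCD and 82.4, 40.6, 57.5 and 658 TPM in cTAL (interaction 1.99, SE 0.82, adjusted p = 0.302). Cxcl1, a neutrophil chemokine, reached 5.5, 37, 50.2 and 68.3 TPM in CCD and 15.1, 9.24, 16.6 and 12.3 TPM in cTAL (interaction 1.73, SE 0.74, adjusted p = 0.32). Both had the larger mean rise in CCD, and neither difference passed the test. Icam1 rose by 2.88 and 3.03, Hbegf, a ligand of the EGF receptor, by 2.81 and 3.42, and Angptl4, an inhibitor of lipoprotein lipase, by 4.27 and 6.15. The others named by size were Sfn, a 14-3-3 protein, at 4.20 and 4.69, Rnd1, a small GTPase, at 3.94 and 4.15, and Arid5a, an RNA-binding regulator of cytokine transcripts, at 3.24 and 3.07.

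The shared falls included Avpr2, the vasopressin receptor. It went from 650.1, 794, 754 and 859 TPM in sham to 329, 216, 289.6 and 120.0 in UUO in CCD and from 63.5, 66.5, 67.3 and 68.5 TPM in sham to 20.2, 26.5, 25.8 and 19.3 in UUO in cTAL. Every obstructed replicate was below every sham one in both segments, and the changes, -1.76, SE 0.27, adjusted p = 0.00856 and -1.51, SE 0.14, adjusted p = 0.00206, differed by less than the spread between animals (interaction -0.26, SE 0.35, adjusted p = 0.799). Rilp, an adaptor of late endosomes and lysosomes, had log2 changes of -1.53 in CCD and -2.03 in cTAL, and Rab3a, a GTPase of vesicle exocytosis, of -1.93 and -2.33. Pomk and Pomgnt2, enzymes that build the sugar chain of dystroglycan, both fell, with -1.52 and -1.48 in CCD and -1.70 and -2.20 in cTAL. Cd200, a surface ligand that restrains myeloid cells, fell from 4.59–9.31 TPM in sham to 0.323–4.22 in UUO in CCD and from 14.7–86.6 TPM in sham to 0–2.2 in UUO in cTAL. Among all 375 shared genes the change was larger in cTAL for 298 (79.5%) and in CCD for 77, against 59.5% larger in cTAL over all genes tested. The cTAL value of a replicate is 1 library and the CCD value a mean of 2, and the part of this in the count was not tested.

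Transport genes of the CCD fell in the CCD by count, but none of these falls was called in the interaction. Of 17 principal cell genes for water and sodium transport, 7 fell and 2 rose in CCD and 2 fell and 3 rose in cTAL. Among all genes tested, 7.53% fell and 4.72% rose in CCD and 6.34% fell and 2.96% rose in cTAL. The interaction value was negative for 16 of the 17, against 49.4% of all genes, and called for 1 of them, Sgk1, a rise. Aqp2 went from 9902, 11280.0, 9824 and 9679 TPM in sham to 4928, 4317, 5771 and 2764 in UUO in CCD (-1.24, SE 0.20, adjusted p = 0.00897). In cTAL, where it is not normally made, it was at 361, 0.34, 4.34 and 0.41 TPM in sham and 51, 22.3, 10.4 and 16.9 in UUO, so that sham 1 stood far above the other 3. The interaction of Aqp2 was -2.76, SE 1.81, adjusted p = 0.548, and exact permutation of the 8 differences gave a two-sided p = 0.2, where the smallest possible is 0.0286. The arms' differences overlapped, and without sham 1 the value was -4.62. Aqp3, the basolateral water channel, fell in CCD (-0.78, SE 0.20, adjusted p = 0.0345), a call lost in 7 of the 8 fits without 1 animal, with an interaction of -1.60, SE 1.48, adjusted p = 0.695, which ran from -2.95 without sham 1 to -0.95 without sham 2. Hsd11b2, which protects the mineralocorticoid receptor from glucocorticoids, had a log2 change of -0.98 in CCD and 0.37 in cTAL (interaction -1.35, SE 0.58, adjusted p = 0.32). Nr3c2, the mineralocorticoid receptor, fell in CCD from 7.15, 7.37, 7.29 and 5.84 TPM in sham to 2.5, 1.52, 0.785 and 1.77 in UUO and was at 1.37–3.86 TPM in sham and 0.58–2.15 in UUO in cTAL (interaction -1.13, SE 0.31, adjusted p = 0.144). Kcnj1, the potassium channel ROMK found in both segments, fell in both, with -1.64 and -1.01. Scnn1b, a subunit of the epithelial sodium channel, fell in CCD (-0.73, SE 0.20, adjusted p = 0.0415), a call lost in 5 of the 8 fits, with an interaction of -0.28.

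Of 23 thick limb transport genes, 1 rose and 4 fell in cTAL and 2 fell in CCD, with no called interaction. The shares of all genes tested were 2.96% and 6.34% in cTAL and 7.53% in CCD. Slc12a1 was at 262, 366, 450.1 and 402 TPM in sham and 405, 676, 264 and 276 in UUO cTAL, overlapping. Umod was at 33550.0–58430.0 TPM in sham and 28440.0–33410.0 in UUO there (-0.35, SE 0.17, adjusted p = 0.228), and Egf at 921–1524 TPM in sham and 1004–1529 in UUO. The interaction values of these 3 genes changed sign between settings and are not read here. Atp1b1, a subunit of the sodium pump, rose in cTAL (1.15, SE 0.28, adjusted p = 0.0373), a call lost in 6 of the 8 fits without 1 animal.

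Lists of inflammation and injury had more rises in CCD than in cTAL, as did all genes tested (4.72% against 2.96%), of which 50.6% had a positive interaction value. Of 19 chemokines and cytokines, 8 rose in CCD and 3 in cTAL, 1 fell in cTAL, and 15 interaction values were positive (median 1.00). Of 27 epithelial injury markers and keratins, 14 rose in CCD and 5 in cTAL, with 19 positive values (median 0.59) and 1 called. Krt19, a keratin of simple epithelia, was at 8.21, 5.73, 12.3 and 2.95 TPM in sham CCD and 40, 139.5, 67.2 and 93.6 in UUO CCD, against 94.3, 188, 117 and 225 TPM in sham and 188, 103, 81.2 and 146 in UUO in cTAL. Differences of the 4 UUO animals all exceeded those of the 4 sham animals, but the test was not passed (interaction 3.62, SE 0.74, adjusted p = 0.0673). Lcn2, the secreted injury marker NGAL, was at 10.8, 36, 30.4 and 96.9 TPM in UUO CCD and 1.56, 46.7, 34.3 and 39.5 in UUO cTAL, with UUO 1 lowest in both (interaction 1.21, SE 0.58, adjusted p = 0.381). Ccl2, a monocyte chemokine, was at 5.37, 16.2, 7.59 and 15.5 TPM in UUO CCD and 8.37, 2.85, 39.7 and 8.16 in UUO cTAL (interaction 1.00, SE 0.83, adjusted p = 0.656). Of 20 claudins and junction proteins, 6 rose and 2 fell in CCD, and 1 rose and 2 fell in cTAL. Cldn4, a claudin of the collecting duct, went from 89.8 ± 22.7 to 492 ± 214 TPM in CCD and from 25 ± 7.27 to 56.2 ± 21.1 TPM in cTAL (interaction 1.26, SE 0.24, adjusted p = 0.0554).

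In other lists the counts were as follows. Beside them stand the shares of all genes tested: 4.72% higher and 7.53% lower in CCD, 2.96% higher and 6.34% lower in cTAL. A negative interaction value was held by 49.4%. Of 22 NF-kB pathway genes, 9 rose in CCD and 5 in cTAL, but the interaction values split 11 to 11. Of 18 NRF2 targets, 8 rose in each segment, 7 of them shared, and 2 fell in CCD, with 13 negative values (median -0.14) and none called. Of 25 glycolysis and hypoxia genes, 6 fell and 1 rose in CCD and 1 fell and 2 rose in cTAL, with 20 negative values and none called. None of 22 ribosomal protein or 13 mitochondrially encoded genes was called in either segment. Of the 11 MAP kinase feedback inhibitors, 4 rose in CCD and 5 in cTAL, where 1, Dusp14, fell, with 7 negative values (median -0.79) and none called.

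**Figure D5:**
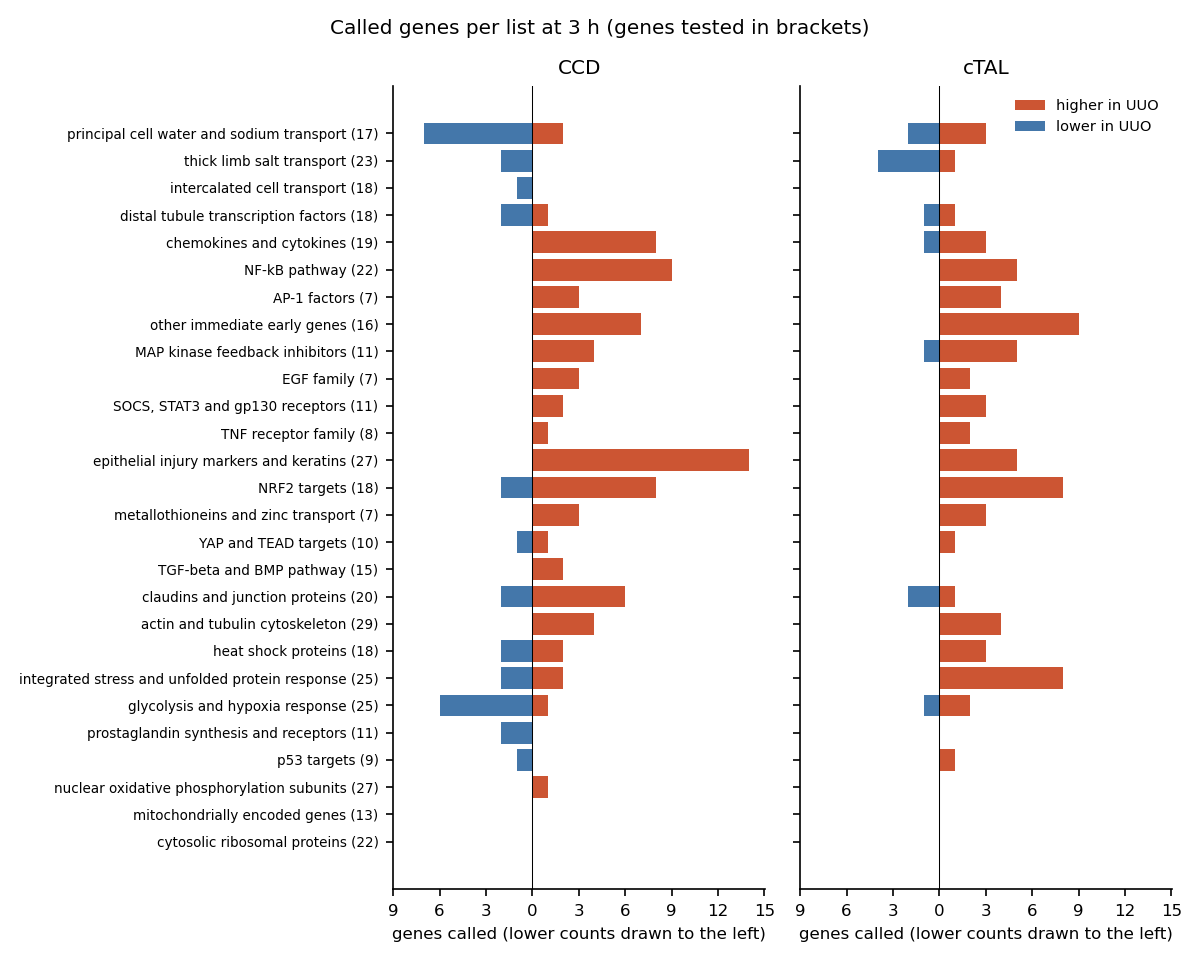
Genes called per list in CCD and in cTAL, higher in UUO to the right and lower to the left, with the number tested in brackets. Epithelial injury markers have 14 rises in CCD and 5 in cTAL, and the integrated stress list 2 and 8.

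The interaction was also computed in the 30 min experiment, which has its own libraries and table. At that time 83 of 12015 genes were called negative (0.691%) and 0 positive (0%) by limma, 1794 had an unadjusted p under 0.05, and the median of all genes was -0.23, so values there are read against that shift. Of 30 genes with a negative call at 3 h that were tested at 30 min, 26 were negative (86.7%, against 77.4% of all genes), with a median of -0.74 and 11 at an unadjusted p under 0.05, none of them called. Of 35 genes with a positive call, 18 were negative (51.4%) and the median was -0.04. Jun had -2.33, adjusted p = 0.104 at 30 min, Fos -2.92, adjusted p = 0.173, Btg2 -1.35, adjusted p = 0.417 and Hist1h1c -0.89, adjusted p = 0.424. Ifit3 had 0.07, adjusted p = 0.957 and Lgals9 -0.04, adjusted p = 0.967. So the genes that gained in cTAL at 3 h had a lower median at 30 min than all genes, but none passed the test there.

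How many interactions are called depended strongly on the animals and the scale. All 71 kept their sign in every alternative in which they were tested (57 of them with a filter of 5 TPM). All 71 also had an unadjusted p under 0.05 in each fit that left out 1 animal. The 71 were chosen by their p in these same animals, which favours both outcomes, so they are a description. The fits without 1 animal called 1 to 35 genes. They called 1 gene, Hist1h1c, in 5 of the 8, 7 without sham 1, 12 without UUO 1 and 35 without UUO 4. Without sham 1 and the 3 CCD libraries with over 5000 TPM of Umod, 35 were called, 22 of them among the 71. Of the calls named here, 37 of 52 changes in CCD and 39 of 57 in cTAL were kept in all 8 fits. Only 1 of the 38 named interaction calls was kept in all 8, and 18 were lost in all 8. Calls of a change within a segment lost in 5 or more of the 8, beside those given above, were those of Adm2, Itpk1 and Cd200 in CCD. In cTAL they were those of Fcer1g, Plek, Gngt2, Arid5a, Rnd1 and Dusp14, among described genes. Without the animal pairing 97 interactions were called, of which 38 are among the 71. With sham and UUO animals of the same number as a replicate block, 4 interactions were called.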

How the data were processed

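The deposited tables hold TPM per gene for each library, which the authors made with STAR 2.7.3 and RSEM 1.3.3 on the rat build Rnor_6.0, per the submitters' processing notes. The sources used here do not say whether strand was kept for these libraries. Of 32883 genes, those with 1 TPM or more in at least 4 of the 8 replicates of either segment were tested (11002).

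Values were taken as log2(TPM + 1), CCD libraries of 1 replicate averaged, and the CCD minus cTAL differences of UUO and sham compared in limma 3.58.1 (lmFit and eBayes with a mean-variance trend, R 4.3.3), adjusted by Benjamini-Hochberg over all genes tested, called under 0.05. Each segment was fitted in the same way. The 30 min table was fitted on its own. The script was tested on simulated data. Deviations of CCD and cTAL from their group means correlated with r from 0.07 to 0.35 within a number and arm, which are taken as 1 animal, and 7 of 8 matched best with their own, sham 4 with sham 2.

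Genes are named by rule: the largest called interactions, class members, shared changes, all opposite genes, up to 4 per pathway list, and a fixed set, mostly with a mean of at least 5 TPM. The largest interactions also had to show no overlap of UUO and sham differences, and members of the CCD and cTAL classes no overlap of arms in that segment. Atf4, Trib3, Junb, Rcan1, LOC100910528, Oasl, Lyz2, C1qb, Rhobtb1, Ctnnal1 and Fxyd5 were named after their values were seen. Arl4d, Klrk1 and Casp1 were named for a motif match. Members and lists were chosen with earlier results of these data known. There were 27 pathway lists, 16 marker lists and 2 added lists. Alternatives were 13 settings, leaving out each animal, and 1 added setting. A gene chosen by the naming rule is not reported here. Samples of the series other than the CCD and cTAL libraries were not used here.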

Additional observations from a re-analysis of the deposited data

Results flagged for a closer look

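For 38 named genes the 3 h change differed between CCD and cTAL by the interaction test itself, over 4 UUO and 4 sham animals. In each of them all 4 UUO differences lay outside the sham range. That holds for every gene with a called interaction, and the naming rule required it for the largest interactions, so it adds no support. The value after each name is the interaction, the CCD change minus the cTAL change in log2(TPM + 1). Rises called in cTAL alone were those of Nppc (-5.53), Rasd1 (-4.07), Igfbp1 (-3.42), Gstm1 (-3.29), Spp2 (-3.20) and Btg2 (-3.19). To these belong Lmo4 (-3.02), Jun (-2.75), Pim3 (-2.06), Sgk1 (-2.03) and Il19 (-1.42). Falls called in cTAL alone were those of Fam167b (1.80), Csgalnact1 (2.22), Rgs18 (2.25), Gngt2 (2.30) and Plek (2.40). Also in this set were Clec4a3 (2.59), Lgals9 (2.65), Fcer1g (2.72) and RT1-S3 (2.92). Changes called in CCD alone were those of Adm2 (-3.08), Itpk1 (-1.59), Gpr160 (-1.16), Fdft1 (1.33) and Cfap20 (1.42). The rest of that set were Nectin2 (2.13), Ifitm1 (2.75), Ch25h (3.33), Ifit2 (3.64) and Ifit3 (4.06). Opposite changes were called for Hist1h1c (-3.52), Afap1l2 (-2.68), Gstm2 (-2.55) and Patz1 (-1.86). The remaining genes, called in both segments alike or in neither, were Cebpd (-2.10), Chac1 (-1.42), Cd40 (2.38) and Aif1 (2.53).

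Of 162 groups of 4 differences examined (81 genes, sham and UUO), 6 held a value far from the other 3, past Dixon's 95% critical value, which flags about 1 in 20 groups by chance. CCD minus cTAL of Socs3 was 2.87 in UUO 1 and -0.11 to 0.16 in the other UUO animals, and it was UUO 1 whose cTAL library had little Socs3. Cyc1, a subunit of respiratory complex III, stood at 2.49 in sham 4 and at 1.24 in UUO 1. Rps2, a ribosomal protein, stood at 2.16 in sham 4, where the other sham animals had 0.31 to 0.61. Plek stood at -2.74 in sham 4 and between -2.13 and -2.09 in the others, and Axl, a receptor tyrosine kinase, at -0.34 in UUO 2.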

How the results depend on the processing

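The 71 interaction calls became 3 with a pseudocount of 0.1, 161 with 5, 2 with no filter on low values, 131 with a filter of 5 TPM, 117 with CCD library 1 alone, 15 with library 2 alone, and 35 without sham 1 and the CCD libraries above 5000 TPM of Umod, a setting chosen after seeing the data. Other scalings, no trend, no animal pairing and leaving out those CCD libraries alone gave 66 to 98, of which 38 (97 called, no pairing), 48 (93, those libraries left out) and 57 to 71 (the others) were among the 71. CCD calls (1348) became 712 with no filter, 595 and 405 with library 1 or 2 alone and 752 in the added setting, where cTAL calls (1023) became 639. The shared class (375) became 147, 162, 150 and 152 in these 4 settings. The CCD class (12) became 0 with a pseudocount of 0.1, 38 with 5, 0 with no filter, 30 with 5 TPM, 21 with no animal pairing, 28 and 2 with 1 CCD library, and 5 in the added setting. The cTAL class (44) became 2, 84, 1 and 70 in the first 4, 11 with library 2 alone and 26 in the added setting. Without 1 animal the ranges were 1 to 35 interactions, 400 to 1586 CCD calls, 356 to 909 cTAL calls and 93 to 382 shared genes. The CCD class ranged from 0 to 3 and the cTAL class from 0 to 28. The lowest CCD, cTAL and shared counts were those without sham 2, and 5 of the 8 fits called 1 interaction. The causes were not tested.

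The CCD minus cTAL differences of sham and UUO animals with the same replicate number did not deviate together (correlations -0.18 to 0.07, each number closest to its own in 1 of 4). A deviation common to both segments cancels in these differences, so whether the numbers pair sham with UUO animals was not settled. With those numbers as a replicate block 4 interactions, 700 CCD calls, 274 cTAL calls, 99 shared genes, 1 gene in the CCD class and 0 in the cTAL class were called.

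Interactions that changed sign were all uncalled and near 0 against their errors. With CCD library 2 alone they were Akap12 -0.0933, Egf 1.32, Icam1 0.0981, Slc12a1 1.40 and Umod 0.87. With library 1 alone they were Socs3 -0.45 and Tnfrsf12a -0.0441. In the added setting they were Akap12 -0.12, Egf 0.50, Icam1 0.0352, Slc12a1 0.75 and Umod 0.33, and leaving out the high-Umod libraries alone gave Akap12 -0.21, Egf 0.25 and Slc12a1 0.40. Akap12 had -0.0625 and Icam1 0.0917 with a pseudocount of 5, and Slc12a1 0.28 and Socs3 -0.33 with 0.1. Rescaling by median of ratios gave Akap12 -0.19 and Socs3 -0.0543, and quantile normalization -0.25 and -0.0655. Without 1 animal the ranges were -0.0922 to 0.15 for Akap12, -1.60 to 0.38 for Egf, -0.52 to 0.0688 for Icam1, -0.26 to 0.0207 for Nfkbia, -0.71 to 0.0351 for Scnn1b, -1.28 to 0.56 for Slc12a1, -0.62 to 0.76 for Socs3, -0.10 to 0.38 for Tnfrsf12a and -2.14 to 0.16 for Umod. Of named interaction calls, 18 of 38 were lost in each of the 8 fits. TPM keep no depth, so counting error could not be given. The 95% interval of an interaction reached 0.725 log2 units to either side in the median gene.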
